A study of Mus musculus with 8 samples.

Results

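This comparison set mouse alveolar macrophages that had been expanded in culture for 2 months (exAM) against uncultured alveolar macrophages that had been transplanted and recovered from a lung (tAM). The members are the 2 exAM and 2 tAM libraries, chosen by their sample titles, that is 4 of the 8 RNA-seq libraries of the series, and all 14537 genes with enough counts to test of the 37310 in the count table. Both groups started from wild-type C57BL/6 mice that were 8 weeks old. The exAM cells carried no transgene and were collected from culture without sorting. The tAM cells carry the CD45.2 form of the leukocyte surface protein CD45 and had been placed into the lungs of C57Bl/6-Ly5.1 mice, also wild-type and 8 weeks old, whose own cells carry CD45.1. Lungs were taken 4 months after the transfer, and live single SiglecF+ CD11c+ CD45.2+ cells were sorted. Each tAM library is a pool of 3 mice and each exAM library a pool of 3 cultures or mice, as labelled. The hosts kept their own alveolar macrophages. The question the design poses is what culture changes relative to cells that stayed in an airway. A sort, a transfer and a difference of months also separate the groups, and these cannot be told apart from culture here.

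Alveolar macrophages live on the inner surface of the air sacs, where they take up spent surfactant, inhaled particles and dying cells. They are of embryonic origin in the mouse, renew themselves in place, and depend on the growth factor GM-CSF and on TGF-beta from their surroundings, which maintain the lipid-handling programme set by PPAR-gamma. In culture these cells meet a supply of growth factor and nutrients set by the medium, without epithelium, surfactant or other leukocytes.

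Total counts were 6546272 and 7110439 in the exAM libraries and 8302130 and 7733568 in the tAM libraries. Levels are given as CPM, the counts scaled to a common library size with the trimmed mean of M-values (TMM), and fold changes are log2 of exAM over tAM with their standard error (SE). A gene was called when its adjusted p was under 0.05 in edgeR's quasi-likelihood test with Benjamini-Hochberg adjustment, and "higher", "rose", "lower" and "fell" are used for called genes and refer to exAM relative to tAM. The p-values measure the spread between pools only. The sum of 20 alveolar macrophage markers was 8610 and 7640 CPM in exAM and 6991 and 7205 CPM in tAM, and all 20 were counted in both groups. Of these 11 were higher and 5 lower. The 2-fold minimum was passed by 0 of the rises and by 3 of the falls, those of Krt79, Krt19 and Il18. The median log2 fold change of the 20 markers was 0.33, below the 0.43 that equal raw counts give after scaling. At least 0.5 counts per base of exon were found for 14 markers. Among the 6 under that coverage 2 rose and 3 fell, and the median log2 fold change was -0.68. Counts of 4 Y-linked genes were between 8 and 59 per exAM library and 0 in tAM, while Xist was counted in all 4 libraries at 801 and 1058 CPM in exAM and 1726 and 1520 CPM in tAM. The sex composition of the pools therefore differed, and sex and culture cannot be told apart.

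Of the 14537 genes, 3124 were higher (21.5%) and 3378 lower (23.2%) in the cultured cells. Together these made up 44.7%, the share to set beside the genes called in each list below. Against a minimum change of 2-fold, edgeR's glmTreat test called 743 genes higher (5.11%) and 1164 lower (8.01%), and against a minimum of 4-fold it called 300 and 418. The sizes were not symmetric. The median absolute log2 fold change was 0.92 among the genes called higher and 1.57 among those called lower. Changes under 1.5-fold made up 23.8% of the higher calls (743 genes) and 9.35% of the lower calls (316 genes). At the other end, 266 called genes were higher and 495 lower by at least 5 on the log2 scale. The libraries of the groups did not overlap for 3123 of the 3124 higher and 3377 of the 3378 lower genes. With 2 libraries a side such separation largely follows from the call and is not further support for it.

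Differences between the groups were larger than those between pools of one group across the whole range of sizes. Among the 10013 genes with at least 10 CPM in either group, the median absolute difference of log2(CPM + 1) was 0.56 between the groups, 0.19 between the exAM libraries and 0.17 between the tAM libraries. A difference past 1 was found for 2651 genes (26.5%) between the groups, for 210 (2.10%) between the exAM libraries and for 228 (2.28%) between the tAM libraries. Past 3, the numbers were 497 genes between the groups, 1 between the exAM libraries and 0 between the tAM libraries. The curves of difference sizes show the same separation at every size.

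**Figure D1:**
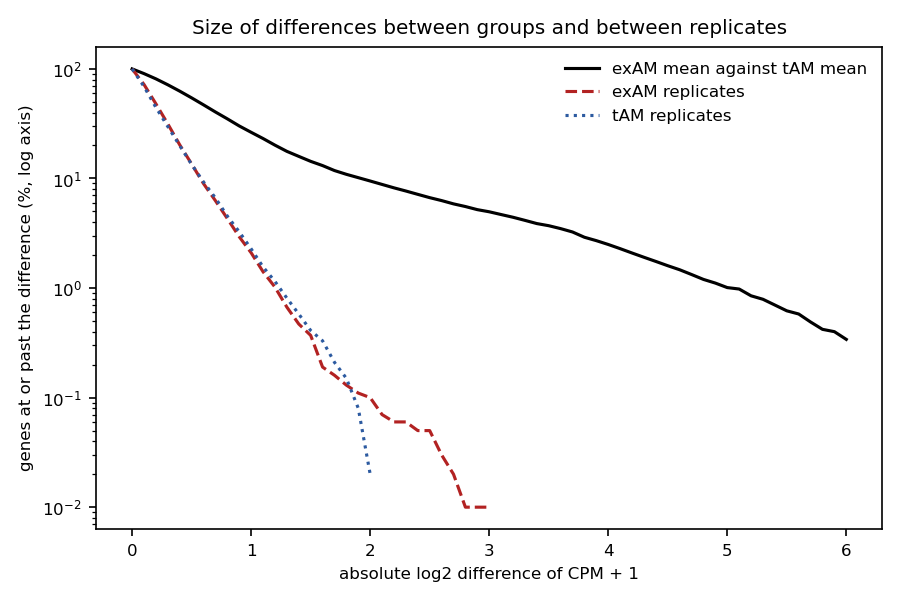
Share of the 10013 genes with at least 10 CPM in either group (vertical, %, log axis) whose absolute difference of log2(CPM + 1) is at or past the value on the horizontal axis, between the exAM and tAM means (solid), the exAM replicates (dashed) and the tAM replicates (dotted). At a difference of 1 the solid line is at 26.4% and the replicate lines at 2.10% and 2.28%. The solid line takes the log2 of each group's mean CPM + 1, and the 26.5% of the text takes the mean of the libraries' log2 values.

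The share of genes called differed with their coverage. The 561 tested genes with at least 0.5 counts per base of exon were called higher in 55.6% and lower in 12.3% of cases, with a median log2 fold change of 0.34, and only 3.74% and 2.50% passed the 2-fold minimum. The 13464 genes under that coverage were called higher in 20.7% and lower in 23.5%. Among these the median fell as coverage dropped. The 2911 genes under 0.01 counts per base had a median log2 fold change of -1.13, with 8.35% higher and 21.4% lower. The 4014 genes from 0.01 to 0.05 had -0.29, with 12.8% and 26.4%. All tested chemokine receptors, TNF ligands, potassium channels and zinc finger proteins below were under 0.5 counts per base. No gene exceeded 1.85 counts per base, and equal raw counts in all 4 libraries correspond to a log2 fold change of 0.43 after scaling. Small rises of densely covered genes are therefore read below together with their coverage. Scaling moved the split as well. With library size alone 34.5% of the calls were higher, with upper quartile scaling 39.1%, and with TMM 48.0%, while the median over all tested genes moved from -0.09 with TMM to -0.29 and -0.22. Lists of small changes are set against that shift.

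Genes counted in 1 group only were mostly of low expression. A total of 559 tested genes had 0 counts in both exAM libraries, 339 of them were called lower, and 32 reached at least 10 CPM in tAM. In the other direction 173 had 0 counts in both tAM libraries, 146 were called higher, and 49 reached at least 10 CPM in exAM. Antisense transcripts were called lower in 31.4% of 322 and higher in 2.17%, and long intergenic RNAs lower for 38 and higher for 9 of 109, whereas protein-coding genes were called higher in 24.2% and lower in 23.4% of 12556. Without stated strand information, reads of an antisense transcript and of its partner cannot be told apart.

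The 12 largest rises among abundant genes were those of the milk protein Csn2, the collagenase Mmp13, Flrt2, Nid1, Met, Slco2a1, Myo1d, Arfgef3, Pkp2, Slc6a8, Myo10 and Sash1. Met, the receptor of hepatocyte growth factor, had 903 and 618 CPM in the exAM libraries and 2.55 and 1.76 CPM in the tAM libraries, a log2 fold change of 8.44 ± 0.31. Slco2a1, a prostaglandin transporter, had 329 and 174 CPM against 0.812 and 0.752 CPM (8.30 ± 0.67), and the unconventional myosin Myo1d 434 and 448 CPM against 2.32 and 2.38 CPM (7.54 ± 0.26). Each of these was low in both lung-derived libraries and abundant in both cultured ones. The adhesion protein Flrt2 (8.77 ± 0.41), the basement membrane glycoprotein Nid1 (8.75 ± 0.43) and the desmosome protein Pkp2 (7.01 ± 0.41) rose by similar amounts. In the opposite direction, Cpne5, a calcium-dependent membrane-binding copine, fell from 338 and 309 CPM in tAM to 0.515 and 0.618 CPM in exAM, and Trp53i11 had 0.858 and 0.463 CPM against 189.8 and 233 CPM (-8.31 ± 0.30). Syne2, a nuclear envelope protein that links to the cytoskeleton, had 51.5 and 48.8 CPM against 1060.4 and 1003 CPM, and the leptin receptor Lepr 17 and 23.9 CPM against 296 and 273 CPM (-3.79 ± 0.17). The transcription factor Nfix had 48.9 and 36 CPM against 214 and 274 CPM (-2.53 ± 0.20).

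Chemokine receptors, which guide leukocytes along gradients, were lower more often than higher. Of 17 tested chemokine receptors 9 were lower and 2 higher, and 7 of the 9 passed the 2-fold minimum. The median log2 fold change was -2.70 against -0.09 over all tested genes. All 17 were under 0.5 counts per base, where the median over all genes was -0.11, and -1.13 under 0.01 counts per base. Ccr7, which directs cells to lymph nodes, had 0 counts in both exAM libraries and 46.2 and 48.9 CPM in tAM, at least 195-fold lower when 3 counts over the group are taken as the floor. Cxcr1, an interleukin-8 family receptor, had 0.343 and 0.926 CPM in the exAM libraries and 40.5 and 38.1 CPM in the tAM libraries, and the log2 fold change was -5.89 ± 0.36 (edgeR's quasi-likelihood test with Benjamini-Hochberg adjustment, adjusted p = 1.1e-06). Cxcr4, the receptor of Cxcl12, fell less (50.9 and 46.6 CPM against 116 and 114 CPM; -1.23 ± 0.13). Ccr1, a receptor of inflammatory CC chemokines, was the clearest exception at 166 and 122 CPM against 50.03 and 37.5 CPM (1.71 ± 0.20), and Cxcr2 also rose (1.33 ± 0.28).

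The cytokine receptors divided more evenly. Of 34 interleukin and colony-stimulating factor receptor genes, 13 fell and 9 rose, and the median of -0.75 was 0.03 when genes needed a minimum of 50 counts. Il7r, the interleukin-7 receptor chain, had 382 and 306 CPM in the exAM libraries and 20.1 and 27.2 CPM in the tAM libraries (3.86 ± 0.41), and Il20rb 101 and 53.6 CPM against 16 and 16.9 CPM (2.23 ± 0.37). Receptors through which macrophages receive their growth factors changed little: Csf1r, the M-CSF receptor, had 670.4 and 651 CPM against 393 and 437 CPM (0.67 ± 0.08), and the shared GM-CSF, interleukin-3 and interleukin-5 chain Csf2rb 1138 and 988 CPM against 721 and 777 CPM (0.50 ± 0.09). Csf2ra, the chain specific to GM-CSF, was not called at 268 and 245 CPM against 236 and 256 CPM (0.06 ± 0.09). Csf1r and Csf2rb are densely covered genes, with at least 0.5 counts per base. Il6ra, the interleukin-6 receptor, fell from 241 and 252 CPM to 34 and 35.5 CPM (-2.83 ± 0.13; edgeR's quasi-likelihood test with Benjamini-Hochberg adjustment, adjusted p = 2e-07), and Csf3r, the receptor of G-CSF, from 80.4 and 81.9 CPM to 0.343 and 1.85 CPM (-6.14 ± 0.42). Il10ra, a chain of the receptor for the anti-inflammatory interleukin-10, fell to 34 and 38.8 CPM from 91.7 and 99.1 CPM. Il18r1, of the interleukin-18 receptor, and Il2rb, of the interleukin-2 receptor, had 0 counts in exAM and were at least 183-fold and at least 58.6-fold lower.

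Several of those receptors are also made by lymphocytes and dendritic cells, whose markers moved in the same direction. Ccr7 is itself on both the chemokine receptor and the dendritic cell list, so these lists are not independent. The sum of 14 lymphocyte markers was 36.7 and 67.9 CPM in exAM and 277 and 354 CPM in tAM. Of the 10 that were tested 7 were lower, and 7 of the 14 had 0 counts in exAM. Of 11 dendritic cell markers 7 were lower and 1, Clec9a, was higher, and their sum was 109.9 and 83.2 CPM against 187 and 215 CPM. Ccr7, Cd209a, Dpp4, Flt3 and Siglech had 0 counts in exAM. Cd209a had only 17 counts over both tAM libraries and was not called in any fit that left out an exAM or tAM library. The part of such cells in the falls of Ccr7, Ccr4, Il2ra, Il2rb, Il18r1 and the ligands below was not tested. In bulk RNA, fewer cells of a type and less RNA per cell cannot be told apart.

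Nucleotide receptors, which sense ATP, ADP and adenosine released by damaged or active cells, were nearly all different. Of 14 tested purinergic receptor genes 8 fell and 5 rose, with 6 and 2 past the 2-fold minimum. P2ry13, an ADP receptor, had 46.3 and 56.8 CPM in the exAM libraries and 206 and 205 CPM in the tAM libraries (-1.99 ± 0.16), and the related P2ry12 8.58 and 6.64 CPM against 30.4 and 31 CPM (-2.01 ± 0.25). Adora2b, the low-affinity adenosine receptor, moved upwards from 6.38 and 4.51 CPM to 53.9 and 94 CPM (3.76 ± 0.38), while Adora2a and Adora3 fell. Of 10 Fc receptor genes, which bind antibodies, 2 rose and 4 fell. The inhibitory Fcgr2b fell from 121 and 129 CPM to 9.09 and 22.7 CPM (-2.96 ± 0.29) and the recycling receptor Fcgrt from 188 and 212 CPM to 47.8 and 35.8 CPM (-2.26 ± 0.16), and of the activating receptors Fcgr1 fell to 39.4 and 51 CPM from 70.3 and 71.3 CPM (-0.65 ± 0.17) while Fcgr3, a densely covered gene, rose by 0.58 on the log2 scale. Fcgr1 was not called without exAM replicate 1 (edgeR's quasi-likelihood test with Benjamini-Hochberg adjustment, adjusted p = 0.094).

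Integrins, the heterodimers that anchor cells to matrix and to each other, rose in 7 and fell in 7 of 22 cases. Itgam, the alpha chain of CD11b and of complement receptor 3, had 1127 and 822 CPM in the exAM libraries and 47 and 47.8 CPM in the tAM libraries, the steepest rise of the family at 4.36 ± 0.20 (edgeR's quasi-likelihood test with Benjamini-Hochberg adjustment, adjusted p = 2e-07). The vitronectin receptor chains rose together, Itgb3 at 91.6 and 85.4 CPM against 6.15 and 10.5 CPM (3.41 ± 0.29) and Itgav at 410.1 and 376 CPM against 132 and 131 CPM (1.58 ± 0.10). Itgb5, another partner of Itgav, had 113 and 79.4 CPM against 166 and 168 CPM and fell by less than 2-fold. Itgad, a chain related to Itgam, went the other way, from 76.6 and 70.2 CPM to 0.343 and 1.08 CPM (-6.62 ± 0.38). The chains of the integrin that binds E-cadherin, Itgae (-4.14 ± 0.52) and Itgb7 (-5.10 ± 0.43), were also lower.

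Secreted signals differed in both directions. Of 22 chemokine genes 6 rose and 11 fell, with 4 and 10 past the 2-fold minimum. Ccl9 had 706 and 572 CPM in the exAM libraries and 62.2 and 58.7 CPM in the tAM libraries (3.40 ± 0.13; edgeR's quasi-likelihood test with Benjamini-Hochberg adjustment, adjusted p = 7.4e-08), and Ccl3 221 and 209 CPM against 12.4 and 8.65 CPM (4.34 ± 0.24). Both attract myeloid cells through Ccr1, the receptor that rose. Among ligands known to attract T cells, Ccl22 fell to 32.2 and 28.1 CPM from 141 and 186 CPM (-2.44 ± 0.19), Ccl17 to 30.01 and 21.9 CPM from 68.1 and 77.2 CPM (-1.49 ± 0.19), and Cxcl16 to 1.03 and 0.309 CPM from 25 and 29 CPM (-5.33 ± 0.56), whereas Ccl25 rose to 10.8 and 5.87 CPM from 1.51 and 2.88 CPM (1.92 ± 0.57). Ccl25 was not called without exAM replicate 1 or without tAM replicate 1 (edgeR's quasi-likelihood test with Benjamini-Hochberg adjustment, adjusted p = 0.17 and 0.11). Cxcl9, an interferon-gamma target, had 0 counts in exAM and was at least 83.6-fold lower. Cx3cl1, the fractalkine ligand, had 15.4 and 19.8 CPM against 89.7 and 105 CPM (-2.47 ± 0.19). Of 11 TNF superfamily ligands 6 were lower, 0 higher and 5 not called, with a median of -2.07. All 11 were under 0.5 counts per base, and 54.5% were called against 44.7% over all tested genes. Tnf itself had 25 and 34.3 CPM in the exAM libraries and 63.8 and 68.1 CPM in the tAM libraries (-1.15 ± 0.20), Tnfsf13b, which supports B cells, was 83.8-fold (95% counting interval 22.9 to 696) lower, and Lta was at least 31.3-fold lower. Tnfsf15 had 3.94 and 4.32 CPM against 0 and 0.502 CPM (3.99 ± 1.69) and was not called in the fit of all 8 libraries, but it passed when no filter was set and when the fit held only the 4 libraries compared. Counting intervals cover counting error only.

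Csf1 encodes M-CSF, a growth factor that macrophages can make for themselves, and had 97.1 and 94.5 CPM in the exAM libraries and 2.55 and 11 CPM in the tAM libraries (3.83 ± 0.58), so the cultured cells held more transcript of both the factor and its receptor Csf1r. Of 13 genes of GM-CSF and M-CSF signalling 7 rose and 1 fell. The gene that fell was Stat5a, which carries the GM-CSF signal to the nucleus, at 32.1 and 33.7 CPM against 141 and 152 CPM (-2.16 ± 0.13; edgeR's quasi-likelihood test with Benjamini-Hochberg adjustment, adjusted p = 1e-06). Feedback inhibitors of cytokine receptors differed too: 5 of 8 genes of the suppressor of cytokine signalling family rose and 0 fell, among them Socs6 at 67.1 and 64.2 CPM against 18 and 16.7 CPM (1.92 ± 0.25), Socs3 at 38.1 and 39.8 CPM against 13.7 and 16.6 CPM (1.37 ± 0.27) and Cish at 113 and 128 CPM against 71.2 and 83.9 CPM (0.63 ± 0.15). Without exAM replicate 2 the family had 2 higher and 1 lower, and Cish was not called without that library or without tAM replicate 1 (edgeR's quasi-likelihood test with Benjamini-Hochberg adjustment, adjusted p = 0.0504 and 0.0632).

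Immediate early genes and NF-kB genes were lower more often than higher. Both are switched on within minutes to hours by stimulation, and also by handling of cells. Of 20 AP-1 and EGR genes 10 fell and 3 rose, with a median of -0.87. Btg2, an antiproliferative early gene, had 28.5 and 33.2 CPM in the exAM libraries and 175 and 169.8 CPM in the tAM libraries (-2.48 ± 0.13), and Ier2 13.7 and 10.2 CPM against 61.1 and 57.9 CPM (-2.32 ± 0.29). Nr4a3, an orphan nuclear receptor of the same early wave, was counted at 0 and 0.463 CPM in exAM and 44.3 and 78.5 CPM in tAM, 249-fold (95% counting interval 85 to 1211) lower. The exceptions were Atf3 (3.29 ± 0.26), Jun (144 and 190.2 CPM against 82.4 and 94.3 CPM; 0.92 ± 0.17) and Ier3 (2.22 ± 0.53), which without exAM replicate 2 was at 1.30 and not called (edgeR's quasi-likelihood test with Benjamini-Hochberg adjustment, adjusted p = 0.093). Among 18 NF-kB subunits and feedback genes 10 were lower and 2 higher, with 2 of the 10 past the 2-fold minimum and 6 lower without tAM replicate 2. Nfkb1 had 88.3 and 98 CPM against 182 and 223 CPM (-1.12 ± 0.13), the kinase Ikbkb 113 and 132 CPM against 338 and 303 CPM (-1.39 ± 0.11), and the inhibitor Tnfaip3 76.5 and 78.1 CPM against 119 and 128 CPM (-0.68 ± 0.15). The tAM cells were dissociated from lung and sorted while the exAM cells were not sorted, and the part of that handling was not tested.

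Several transcription factors of myeloid cells changed by large amounts. The inhibitor of differentiation Id2 rose to 239 and 261 CPM from 50.5 and 60.9 CPM (2.17 ± 0.19; edgeR's quasi-likelihood test with Benjamini-Hochberg adjustment, adjusted p = 1.2e-05). Batf fell from 66.7 and 83.4 CPM to 14.6 and 12.2 CPM (-2.49 ± 0.20), and Cebpd, Runx3 and Maf were lower by more than the 2-fold minimum. Of 23 myeloid factors 5 rose and 8 fell. Nuclear receptors, transcription factors that bind hormones and lipids, were lower in 11 and higher in 2 of 28 cases. Their share called was 46.4%, against 44.7% over all tested genes. Rara, a retinoic acid receptor, had 203 and 219 CPM against 340.0 and 387 CPM (-0.78 ± 0.11) and Nr1h2, an oxysterol receptor, 35 and 33.7 CPM against 77 and 102 CPM (-1.38 ± 0.18). The mineralocorticoid receptor Nr3c2 fell from 24.1 and 13.7 CPM to 0.515 and 2.16 CPM (-3.78 ± 0.54). Of 29 chromatin enzymes 5 rose and 11 fell, 55.2% called against 44.7% over all tested genes, and 0 passed the 2-fold minimum. Without tAM replicate 2 the falls were 7. Among 325 zinc finger proteins 22 rose and 67 fell (median -0.35), 27.4% called against 44.7% over all tested genes, with 38, 43 and 41 falls without exAM replicate 1, exAM replicate 2 and tAM replicate 1, and among 44 tripartite motif proteins 5 rose and 19 fell.

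Genes of the MITF family and of osteoclasts were mostly higher. MITF, TFE3, TFEB and TFEC are factors that drive lysosome genes, and osteoclasts are the bone-resorbing macrophages that use them. Of 19 genes 13 rose and 3 fell (median 0.76), and 7 rose without exAM replicate 1. Mitf had 177 and 229 CPM in the exAM libraries and 121 and 119.7 CPM in the tAM libraries (0.76 ± 0.14), the protease Ctsk 471 and 392 CPM against 223 and 219 CPM (0.96 ± 0.10), and Gpnmb 1026 and 874 CPM against 435 and 427 CPM (1.14 ± 0.09). The fusion genes Dcstamp at 12.3 and 8.34 CPM against 0.232 and 0.878 CPM and Ocstamp at 12.5 and 4.79 CPM against 0 and 0.502 CPM rose from near 0 to low levels, and neither was called without exAM replicate 1 (edgeR's quasi-likelihood test with Benjamini-Hochberg adjustment, adjusted p = 0.054 and 0.089). Against that direction, Nfatc1, the master factor of osteoclasts, fell to 161 and 159 CPM from 336 and 352 CPM (-1.11 ± 0.09), and Tfeb to 47.7 and 46.2 CPM from 109 and 100.4 CPM (-1.16 ± 0.19). The V-ATPase, the proton pump that acidifies lysosomes and the osteoclast surface, had 13 of 21 subunit genes higher and 1 lower. Atp6v0a1 had 739 and 642 CPM against 270.1 and 291 CPM (1.30 ± 0.10) and Atp6v1c1 441 and 471 CPM against 195 and 177 CPM (1.29 ± 0.10), both past the 2-fold minimum. Of the 15 subunits under 0.5 counts per base, 8 rose and 1 fell, with a median of 0.48.

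Transporter genes were called higher more often than lower. Of 231 solute carriers 79 rose and 37 fell, 26 and 14 of them past the 2-fold minimum, and with library size scaling 62 rose and 51 fell. The share called was 50.2%, against 44.7% over all tested genes. The creatine transporter Slc6a8 had 508 and 446 CPM in the exAM libraries and 5.92 and 5.39 CPM in the tAM libraries (6.39 ± 0.23; edgeR's quasi-likelihood test with Benjamini-Hochberg adjustment, adjusted p = 5e-08). Slc6a12, which carries the osmolyte betaine, had 41.5 and 60.8 CPM in exAM and 0 counts in tAM, at least 283-fold higher, and Slc16a9 was at least 128-fold higher. The choline transporter Slc44a1 rose to 289.7 and 264 CPM from 37.6 and 26.6 CPM (3.11 ± 0.33). The glutamine transporter Slc38a1 fell to 89.2 and 51.1 CPM from 322 and 344 CPM (-2.25 ± 0.21), and the glutamate transporter Slc1a3 was 469-fold (95% counting interval 83.8 to 18550) lower. Among the ABC transporters, which pump substrates with the energy of ATP, 12 of 31 rose and 4 fell. Their share called was 51.6%, against 44.7% over all tested genes. Abcg2, the efflux pump of the side population of stem cells, had 159 and 139 CPM against 14.2 and 9.53 CPM (3.65 ± 0.26), and Abcb1a had 42.4 and 184 CPM against 4.53 and 5.27 CPM (4.53 ± 0.64), so that its exAM libraries differed by more than 4-fold from each other. The cholesterol exporter Abca1 fell to 93.3 and 52 CPM from 386 and 367 CPM (-2.38 ± 0.22). Potassium channel genes, in contrast, were lower in 16 and higher in 3 of 33 cases, with a median of -1.78 that becomes -1.50 when genes at 0 counts are set to their bound, and with 10 lower without exAM replicate 2. Kcna3 had 45.4 and 36.6 CPM against 132 and 134 CPM (-1.69 ± 0.15), and Kcnk5 was 77.2-fold (95% counting interval 21.1 to 641) lower.

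The tricarboxylic acid cycle oxidises acetyl groups in mitochondria. Of 25 genes of the tricarboxylic acid cycle and its entry, 13 rose, 0 fell and 12 were not called with TMM scaling (median 0.51), and none passed the 2-fold minimum. Citrate synthase Cs had 539.5 and 472 CPM in the exAM libraries and 307 and 301 CPM in the tAM libraries (0.74 ± 0.09; edgeR's quasi-likelihood test with Benjamini-Hochberg adjustment, adjusted p = 0.00011), and the pyruvate dehydrogenase subunit Pdha1 125 and 114 CPM against 57.1 and 51.3 CPM (1.14 ± 0.18). With library size scaling 5 rose and 2 fell, and without exAM replicate 1 or tAM replicate 2 there were 8 and 7 higher, so these small rises depended on the scaling and on single libraries. Complex I of the respiratory chain had 8 of 36 subunits higher and 5 lower, and mitochondrial ribosomal proteins 7 of 77 higher and 8 lower. Their shares called were 36.1% and 19.5%, and that of the tricarboxylic acid cycle list was 52.0%, against 44.7% over all tested genes.

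Of 17 arginine and polyamine genes 7 rose, 6 past the 2-fold minimum, and 1 fell, and the 7 rises were also counted under each leave-one-out and scaling alternative. The share of the list called was 47.1%, against 44.7% over all tested genes. Argininosuccinate synthase Ass1, which remakes arginine from citrulline, had 129.7 and 104 CPM in the exAM libraries and 5.22 and 10.2 CPM in the tAM libraries (3.93 ± 0.35). Odc1, the first enzyme of polyamine synthesis, had 143 and 119 CPM against 46.5 and 42 CPM (1.56 ± 0.18), and its stabiliser Azin1 211 and 215 CPM against 79.9 and 61.8 CPM (1.59 ± 0.16; edgeR's quasi-likelihood test with Benjamini-Hochberg adjustment, adjusted p = 3.9e-05). The arginine carriers Slc7a1 at 206 and 332 CPM against 76.8 and 87.4 CPM and Slc7a2 at 2214 and 2108 CPM against 1101 and 1128 CPM were also higher. Uptake, resynthesis and use of arginine each had a member that rose, but the steps did not rise as a whole. Of the 17 genes 9 were not called, among them Asl (-0.24) of resynthesis and Srm (0.23) and Sms (0.49) of polyamine synthesis. The one that fell, Arg2, the mitochondrial arginase, had 1.72 and 0.926 CPM against 5.80 and 5.02 CPM. Arg2 was not called in any of the 4 fits that left out a library (edgeR's quasi-likelihood test with Benjamini-Hochberg adjustment, adjusted p from 0.053 to 0.16).

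Iron handling genes were higher in 11 and lower in 2 of 19 cases, with 6 higher without exAM replicate 1, without tAM replicate 1, without tAM replicate 2 and with library size scaling. Slc11a1, which pumps metal ions out of the phagosome, had 144 and 154 CPM in the exAM libraries and 21.1 and 11.9 CPM in the tAM libraries (3.17 ± 0.34), and the ferrireductase Steap3 93 and 78.6 CPM against 15.1 and 13.4 CPM (2.59 ± 0.25). Flvcr1, described as a haem exporter, rose to 123 and 98.2 CPM from 25.1 and 35.7 CPM (1.86 ± 0.22). Those 3 passed the 2-fold minimum, whereas the ferritin chain Fth1 (0.45 ± 0.10) was close to the value that equal counts give and was not called without tAM replicate 1 or with library size scaling (edgeR's quasi-likelihood test with Benjamini-Hochberg adjustment, adjusted p = 0.051 and 0.063).

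Lipid genes changed in both directions. Of 25 sphingolipid genes 13 rose and 3 fell (median 0.46). Cers6, a ceramide synthase, had 861 and 801 CPM in the exAM libraries and 207 and 200.4 CPM in the tAM libraries (2.03 ± 0.08; edgeR's quasi-likelihood test with Benjamini-Hochberg adjustment, adjusted p = 8.6e-08), and Sgpl1, which degrades sphingosine phosphate, 618 and 603 CPM against 296 and 230.5 CPM (1.21 ± 0.12). S1pr1, the receptor that senses sphingosine phosphate, fell to 0.172 and 0.772 CPM from 8.59 and 15.2 CPM. Of 26 triglyceride and lipid droplet genes 9 rose and 9 fell, and 7 of the falls but 1 of the rises passed the 2-fold minimum; the median was 0.01, and -0.19 with library size and -0.12 with upper quartile scaling. Dgat2, which makes triglyceride, had 0.686 and 0.772 CPM against 86.5 and 86.1 CPM (-6.85 ± 0.35). The desaturase Scd1 fell to 15.8 and 26.4 CPM from 137 and 113 CPM (-2.56 ± 0.22), and the droplet protein Plin4 was at least 39-fold lower. Fatty acid synthase Fasn (0.79 ± 0.12) and lipoprotein lipase Lpl (0.51 ± 0.08) were slightly higher. Genes of droplets and of synthesis were found on both sides: the droplet proteins Hilpda, at 31 and 46 CPM against 7.89 and 4.89 CPM (2.59 ± 0.41), and Cideb (0.97 ± 0.22) rose, and the fatty acid binding protein Fabp1 fell to 8.23 and 3.55 CPM from 95.6 and 101 CPM (-4.08 ± 0.28).

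Prostaglandins and leukotrienes are lipid mediators made from arachidonic acid. Among 21 eicosanoid genes 5 rose and 4 fell, 42.9% called against 44.7% over all tested genes, with a median of 0.11 that was -0.09 with library size and -0.02 with upper quartile scaling. Ptgs1, the constitutive cyclooxygenase, had 271 and 267 CPM in the exAM libraries and 23.1 and 23.6 CPM in the tAM libraries (3.53 ± 0.17; edgeR's quasi-likelihood test with Benjamini-Hochberg adjustment, adjusted p = 3.1e-07), and Ptgir, the prostacyclin receptor, 353 and 350.3 CPM against 65.3 and 40.6 CPM (2.73 ± 0.21). Ltc4s, the synthase of cysteinyl leukotrienes, fell to 19.4 and 15.6 CPM from 67.3 and 77.7 CPM (-2.05 ± 0.19), and Alox5, which starts leukotriene synthesis, to 263 and 239 CPM from 356 and 386 CPM (-0.56 ± 0.10). Ptger2, a receptor of prostaglandin E2, also fell, to 33.3 and 29.6 CPM from 50.8 and 59.7 CPM (-0.81 ± 0.19).

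**Figure D2:**
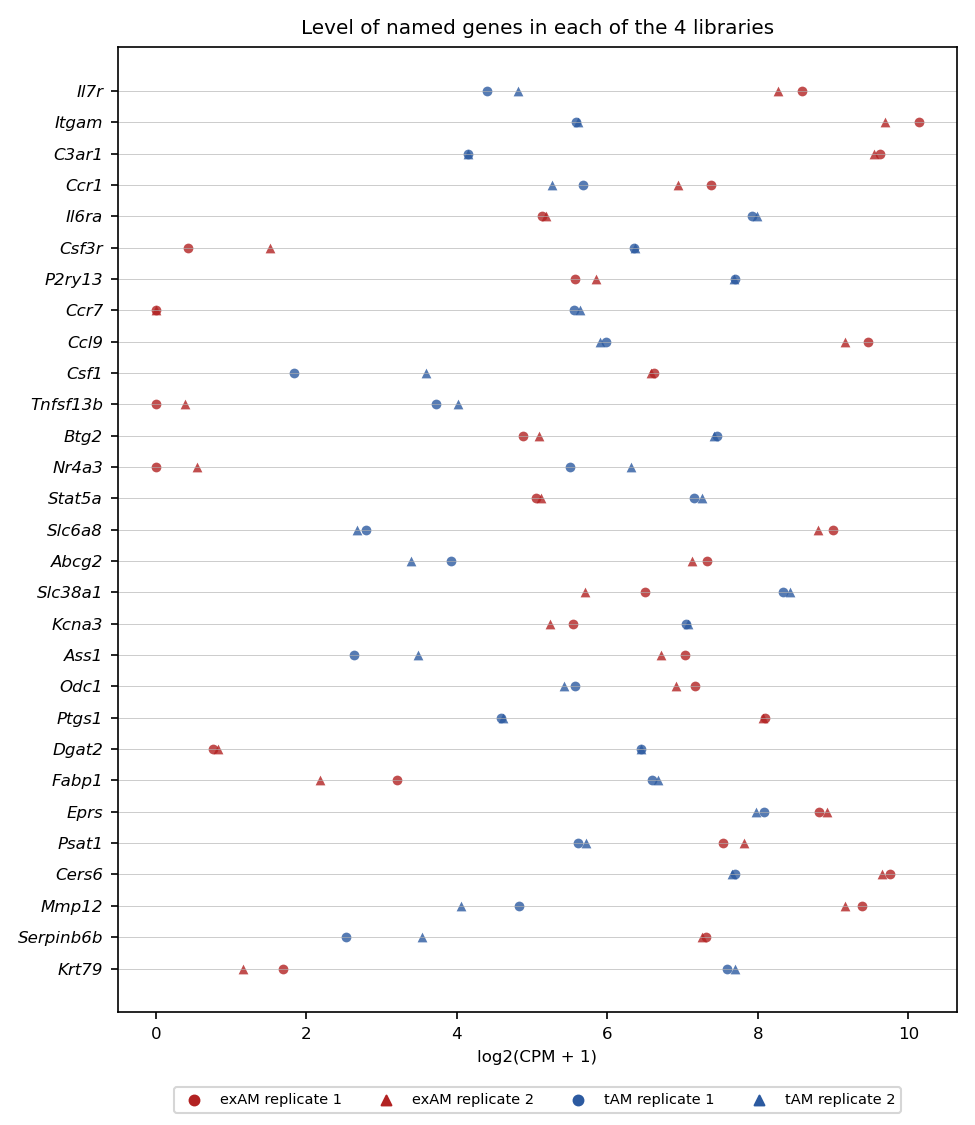
Level of 29 genes of the lists described (rows) in each library, as log2(CPM + 1) on the horizontal axis, with exAM in red, tAM in blue, circles for replicate 1 and triangles for replicate 2. Genes were chosen without overlap between red and blue; the distance is wide for Ccr7, Dgat2, Krt79 and Slc6a8 and narrowest for Eprs.

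Genes that load amino acids onto tRNA in the cytosol were mostly higher. Of 19 tested cytosolic aminoacyl-tRNA synthetases 12 rose and 1 fell (median 0.60), and 0 passed the 2-fold minimum. Eprs, which serves glutamate and proline, had 448 and 482 CPM in the exAM libraries and 269 and 251 CPM in the tAM libraries (0.84 ± 0.09; edgeR's quasi-likelihood test with Benjamini-Hochberg adjustment, adjusted p = 6.6e-05). Iars for isoleucine had 299 and 347 CPM against 160.1 and 185 CPM (0.90 ± 0.11), and Tars for threonine 129 and 167 CPM against 75.4 and 76.6 CPM (0.96 ± 0.14). Farsa, a subunit of the phenylalanine enzyme, fell to 24.7 and 20.1 CPM from 52.1 and 50.5 CPM, although its partner subunit Farsb rose to 201 and 206 CPM from 107 and 109 CPM. The mitochondrial synthetases did not share the rise, with 1 of 16 higher, 2 lower and a median of -0.34. That median was 0.17 without tAM replicate 1, and the difference between the lists was not tested. Of the mitochondrial synthetases 18.8% were called and of translation initiation factors 41.7%, against 44.7% over all tested genes. In neither list did a gene pass the 2-fold minimum. Translation initiation factors rose in 19 and fell in 1 of 48 cases by small amounts (median 0.24), in 12 and 4 cases with library size scaling and in 12 and 0 without tAM replicate 1.

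The integrated stress response, the programme by which ATF4 induces amino acid synthesis and transport when translation is limited, was uneven between the cultures. Of 20 genes 9 rose, 6 past the 2-fold minimum, and 1 fell, with a median of 1.05. Without exAM replicate 2 the counts were 5 and 2 with a median of 0.31, and without exAM replicate 1 they were 12 and 1 with a median of 1.58. Psat1, an enzyme of serine synthesis, was alike in both cultures at 185 and 225 CPM in the exAM libraries and 47.9 and 51.4 CPM in the tAM libraries (2.05 ± 0.19; edgeR's quasi-likelihood test with Benjamini-Hochberg adjustment, adjusted p = 2.1e-05). Asns, which makes asparagine, had 54.9 and 157 CPM against 5.69 and 14.2 CPM, the one-carbon enzyme Aldh1l2 12.3 and 113 CPM against 1.16 and 1.5 CPM, and Chac1, which degrades glutathione, 5.83 and 39.8 CPM against 5.34 and 4.14 CPM. For these 3 genes the exAM libraries differed more than 2-fold from each other, and without exAM replicate 2 the log2 fold change of Chac1 was 0.31 and not called (edgeR's quasi-likelihood test with Benjamini-Hochberg adjustment, adjusted p = 0.74, with 0.081 to 0.12 without either tAM library). The median difference of replicate 2 minus replicate 1 over the list was 0.85 in exAM and 0.19 in tAM on the log2(CPM + 1) scale, against 0 in both groups over all tested genes and 0.20 and 0.05 over the cytosolic synthetases. The plot of the replicates against each other shows the stress genes of exAM above the diagonal.

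**Figure D3:**
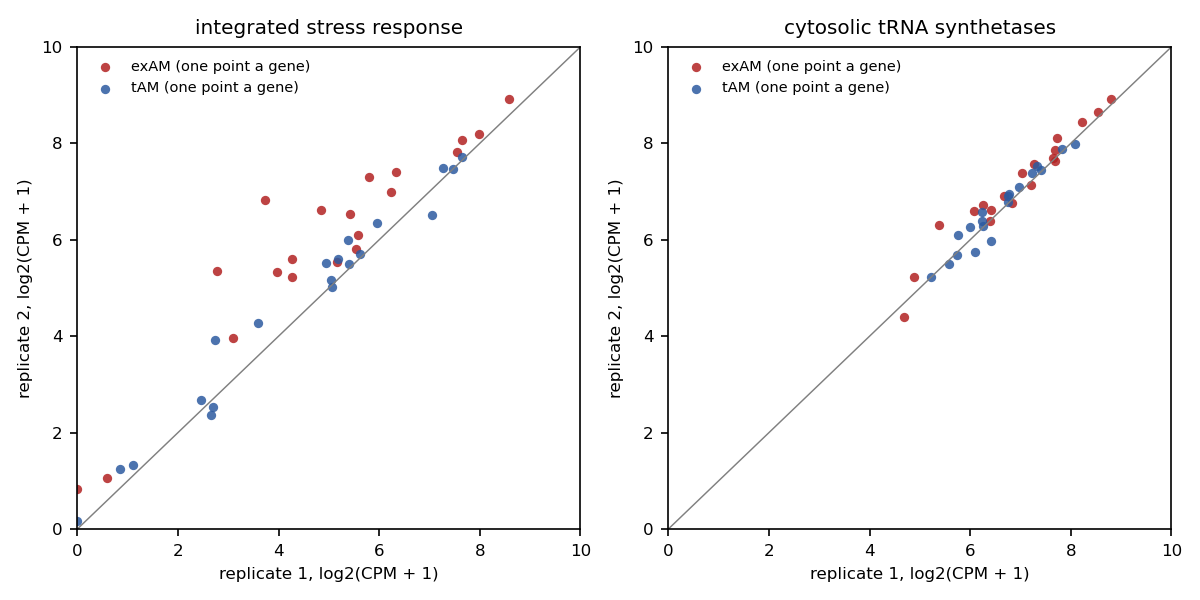
Replicate 2 (vertical) against replicate 1 (horizontal) in log2(CPM + 1), a point a gene, for the integrated stress response list (left) and the cytosolic tRNA synthetases (right), exAM in red and tAM in blue; the grey line marks equal levels. On the left most red points lie above the line (median difference 0.85), and on the right both colours lie close to it (0.20 and 0.05).

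ATF4 binds composite elements of which TGATGNAA (N any base, both strands) is a short form, and this motif was searched in the 250 bases before each RefSeq start of GRCm38.p6. It was present in 4 of the 17 stress response genes with a window, namely Asns, Chac1, Nupr1 and Slc7a11, and in 3.45% of all 32851 windows. A gene with several windows counted when any of them held a match. Motif and rise did not always go together: Nupr1 was not called (-0.64), and Mthfd2, Psat1 and Trib3 rose without a match. Stretches of Slc7a11, the cystine carrier of the list, at chr3:50443627-50443705 (minus strand) and of Chac1 at chr2:119351023-119351082 (plus strand) are shown because these genes belong to those that rose in culture and hold the motif. Capitals mark the matches, which start 66 and 47 bases before the start in Slc7a11 and 193 before it in Chac1.
Slc7a11: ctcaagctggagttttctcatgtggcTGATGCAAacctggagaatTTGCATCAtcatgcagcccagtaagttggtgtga
Chac1: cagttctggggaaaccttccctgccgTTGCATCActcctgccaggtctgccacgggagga
In Slc7a11 one match lies on each strand, and in Chac1 the match is on the reverse strand. Slc7a11 had 380.4 and 482 CPM in the exAM libraries and 132 and 90.9 CPM in the tAM libraries (1.95 ± 0.26), so that its cultures were closer to each other than those of Chac1. A match is a description of the letters and not evidence of binding.

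Proteins that act outside the cell rose and fell within the same families. Of 15 matrix metalloproteinases and their inhibitors 8 were higher and 4 lower (median 1.13), 4 and 2 without exAM replicate 1, 7 and 2 without exAM replicate 2, 4 and 3 without tAM replicate 1, and 5 and 3 without tAM replicate 2. Mmp19 had 470.3 and 310.0 CPM in the exAM libraries and 172 and 185 CPM in the tAM libraries (1.13 ± 0.17), and the gelatinase Mmp2 rose to 9.26 and 12.4 CPM from 0.232 and 0.251 CPM. Of the membrane-bound enzymes, Mmp25 fell to 0.172 and 0.772 CPM from 16.8 and 25.7 CPM (-5.41 ± 0.53), and Mmp14, which activates other metalloproteinases, was 40.1-fold (95% counting interval 10.8 to 335) lower, while Mmp15 (2.92 and 0.309 CPM against 0.464 and 0.125 CPM) and Mmp17 (0.515 and 0 CPM against 0.348 and 0 CPM) were not called. Genes of the ADAM and ADAMTS families fell in 9 and rose in 5 of 18 cases. Adam22 had 4.63 and 5.10 CPM against 151 and 135 CPM (-4.87 ± 0.17) and Adam19 0.515 and 0.463 CPM against 35.6 and 73.7 CPM (-6.76 ± 0.68), whereas the sheddase Adam10 had 483 and 479.9 CPM against 226 and 199.9 CPM (1.18 ± 0.09) and Adam8 244 and 128 CPM against 18.1 and 23.7 CPM (3.15 ± 0.34).

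Serpins, the inhibitors of serine and cysteine proteases, were higher in all tested genes of a cluster. Of 16 tested members 9 rose and 2 fell, 7 and 2 of them past the 2-fold minimum. All 7 tested Serpinb genes of the cluster on chromosome 13, from Serpinb1a to Serpinb6a (GRCm38, positions 32842092 to 34002794), were higher. Serpinb6b had 158 and 152 CPM in the exAM libraries and 4.76 and 10.7 CPM in the tAM libraries (4.34 ± 0.71), Serpinb9, which blocks granzyme B, 60.4 and 59.1 CPM against 13.7 and 17.9 CPM (1.92 ± 0.31), and Serpinb6a 297 and 287 CPM against 153 and 146 CPM (0.96 ± 0.10). Serpinb9b had 158 and 73.3 CPM in exAM and 0 counts in tAM. Genes of this cluster are close copies, the handling of shared reads is not given in the sources used here, and the value of each single copy is uncertain.

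A second group of neighbours was the casein genes, which encode the main proteins of milk. Csn1s1, Csn2 and Csn1s2a lie within positions 87666208 to 87788797 of chromosome 5 (GRCm38). Csn2 had 327 and 308 CPM in exAM, Csn1s2a 18 and 51.6 CPM and Csn1s1 7.89 and 9.88 CPM, and all 3 had 0 counts in both tAM libraries. They were at least 1756-fold, at least 192-fold and at least 49.1-fold higher. Csn1s2a, whose cultures differed from each other by more than 2-fold, was not called by DESeq2's Wald test (Benjamini-Hochberg adjusted p = 0.062).

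Complement genes, which mark particles for uptake and recruit cells, were lower in 9 and higher in 4 of 18 cases. The receptors of the activation fragments parted, with C3ar1 at 790.1 and 745 CPM against 16.7 and 16.7 CPM (5.52 ± 0.29), C5ar1 at 266 and 207 CPM against 361 and 378 CPM (-0.64 ± 0.12) and C5ar2 at 49.7 and 48 CPM against 108 and 142 CPM (-1.35 ± 0.19). The chains of C1q, which starts the classical pathway, were low in both groups and lower in exAM, C1qb at 0.858 and 1.85 CPM against 9.52 and 26.3 CPM and C1qc at 0.686 and 0.154 CPM against 11.6 and 10.3 CPM. C3, the central component, had 331 and 339 CPM against 589 and 614 CPM (-0.84 ± 0.08). Genes for the uptake of dying cells rose in 11 and fell in 5 of 21 cases, with 3 falls without exAM replicate 2 or tAM replicate 2. The bridging protein Mfge8 had 586 and 509 CPM in the exAM libraries and 34.6 and 52.7 CPM in the tAM libraries (3.65 ± 0.23; edgeR's quasi-likelihood test with Benjamini-Hochberg adjustment, adjusted p = 1.7e-06) and the scavenger receptor Cd36 828 and 670.0 CPM against 240.2 and 243 CPM (1.63 ± 0.12), while Pros1, a bridging ligand of other uptake receptors, fell by less than 2-fold (-0.81 ± 0.10). Mfge8 bridges to the integrin of Itgav and Itgb3, and all 3 genes were higher, while Itgb5, another partner of Itgav, was lower.

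Keratins, filament proteins of epithelium, were lower in 6 and higher in 0 of 11 cases, with 3 lower without exAM replicate 2. Krt79 had 2.23 and 1.24 CPM in the exAM libraries and 192 and 206 CPM in the tAM libraries (-6.85 ± 0.24), Krt19 66.2 and 122 CPM against 254 and 281 CPM (-1.51 ± 0.22) and Krt80 2.40 and 0.309 CPM against 29.9 and 31.6 CPM (-4.53 ± 0.56). Krt79 and Krt19 are also on the list of alveolar macrophage markers. Of the 11 keratins 54.5% were called, against 44.7% over all tested genes. Epithelial markers moved with them: 14 of 18 were lower and 1 higher, 11 had 0 counts in exAM, among them Sftpc, Sftpa1 and Krt8, and their sum was 436.5 and 388.5 CPM in exAM against 771 and 745 CPM in tAM. Cdh1 made up most of the exAM sum, at 422 and 375 CPM. Krt8 and Krt18, both lower, are on the keratin and the epithelial list, so part of the shared direction comes from the same genes. The part of epithelial RNA in the falls of keratins was not tested. Markers of other lung cells gave smaller sums. The 8 red cell and platelet markers had 2.06 and 0.154 CPM in exAM and 57.7 and 53.0 CPM in tAM, and 5 of the 5 tested were lower. The 9 fibroblast markers had 55.9 and 67.2 CPM against 5.57 and 5.27 CPM, and 3 of the 4 tested were higher. Markers of monocytes and interstitial macrophages summed to 1909 and 1530 CPM against 461 and 475 CPM, with 4 of 12 higher and 5 lower. Itgam made up much of that difference, and without it the sums were 782 and 708 CPM against 414 and 428 CPM. Their parts in the matrix and chemokine results were not tested.

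Genes with CpG-poor promoters were called past the 2-fold minimum more often than those with CpG-rich promoters. A CpG-rich promoter, in which the dinucleotide CG is not depleted, is typical of widely expressed genes, and a CpG-poor one of tissue-restricted genes. Windows of 300 bases around RefSeq starts (GRCm38.p6) were found for 10061 of 12556 tested protein-coding genes (80.1%), and for 76.2% and 76.8% of those called higher and lower past 2-fold, and a ratio of observed to expected CG of 0.6 was used as the border. The 6954 CpG-rich genes were called past 2-fold in 4.76% (higher) and 4.76% (lower), with a median absolute log2 fold change of 0.57. Of the 3107 CpG-poor genes 7.21% and 13.8% passed, with a median of 1.03. The same was seen at matched coverage from 0.01 counts per base upwards: between 0.1 and 0.2 counts per base, 9.0% of CpG-poor and 4.95% of CpG-rich genes were higher, and 11.3% and 3.37% lower. Below 0.01 counts per base the shares of higher genes were 4.58% for CpG-poor and 5.17% for CpG-rich genes. Genes are not independent replicates, and these shares are given as a description with no test.

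**Figure D4:**
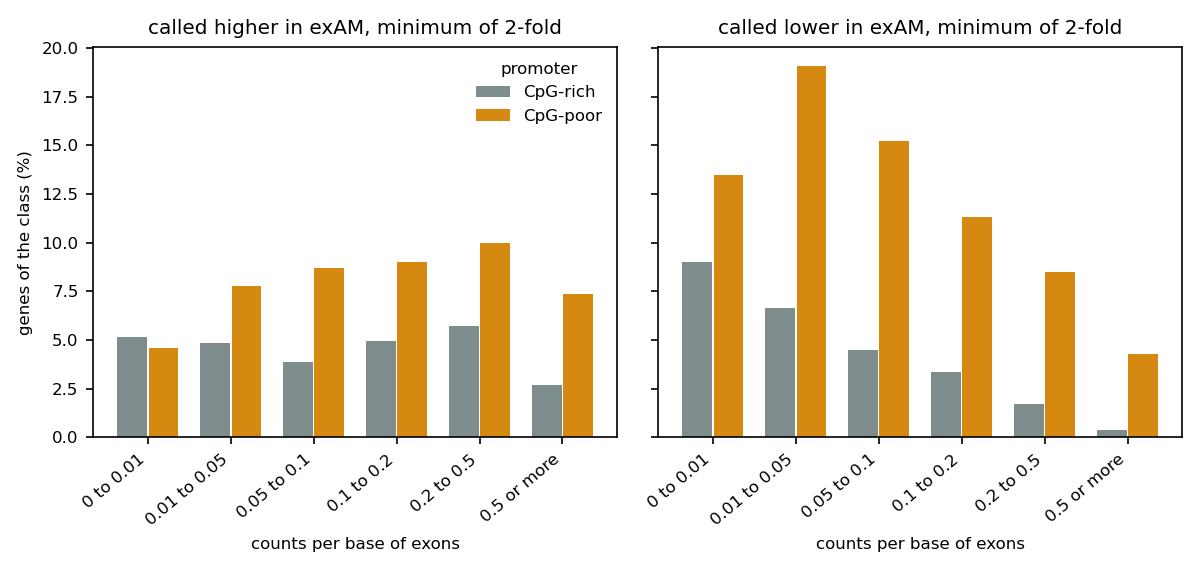
Share of genes (vertical, %) called past a 2-fold minimum as higher (left) and lower (right) in exAM, for CpG-rich (grey) and CpG-poor (orange) promoters, by counts per base of exons (horizontal). The orange bar exceeds the grey bar in every class on the right and in all but the lowest class on the left; with at least 0.5 counts per base the lower shares are 4.29% and 0.38%.

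The 250 bases before the start of 5 genes show the span from depleted to dense CG, given in capitals, and were chosen because their changes in culture have been described here or are large. Mmp13 (chr9:7272264-7272513, plus strand, 1 CG) and Itgam (chr7:128062390-128062639, plus, 6) rose steeply, and H2-Aa (chr17:34287824-34288073, minus, 3), an antigen presentation gene, fell. The citrate synthase gene Cs (chr10:128337477-128337726, plus, 13) and the synthetase gene Eprs (chr1:185362794-185363043, plus, 28) rose by less than 2-fold.
Mmp13: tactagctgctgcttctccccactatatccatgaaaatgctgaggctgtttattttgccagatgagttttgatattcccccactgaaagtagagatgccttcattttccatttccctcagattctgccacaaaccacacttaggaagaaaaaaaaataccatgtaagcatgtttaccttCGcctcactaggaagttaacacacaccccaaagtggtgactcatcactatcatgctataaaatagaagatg
Itgam: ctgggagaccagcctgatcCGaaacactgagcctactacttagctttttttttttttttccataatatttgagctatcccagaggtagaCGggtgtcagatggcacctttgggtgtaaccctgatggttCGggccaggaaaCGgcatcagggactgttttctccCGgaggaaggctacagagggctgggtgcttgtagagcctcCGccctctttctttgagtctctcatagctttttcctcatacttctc
H2-Aa: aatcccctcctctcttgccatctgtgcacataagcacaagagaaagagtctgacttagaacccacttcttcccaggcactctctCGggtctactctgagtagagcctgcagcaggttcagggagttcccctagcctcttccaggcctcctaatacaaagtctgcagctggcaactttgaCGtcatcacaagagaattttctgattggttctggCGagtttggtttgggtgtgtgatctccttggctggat
Cs: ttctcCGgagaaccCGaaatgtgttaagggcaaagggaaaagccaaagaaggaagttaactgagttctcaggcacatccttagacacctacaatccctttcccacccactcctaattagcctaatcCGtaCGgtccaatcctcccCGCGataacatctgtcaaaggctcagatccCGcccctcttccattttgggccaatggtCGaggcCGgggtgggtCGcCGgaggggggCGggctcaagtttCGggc
Eprs: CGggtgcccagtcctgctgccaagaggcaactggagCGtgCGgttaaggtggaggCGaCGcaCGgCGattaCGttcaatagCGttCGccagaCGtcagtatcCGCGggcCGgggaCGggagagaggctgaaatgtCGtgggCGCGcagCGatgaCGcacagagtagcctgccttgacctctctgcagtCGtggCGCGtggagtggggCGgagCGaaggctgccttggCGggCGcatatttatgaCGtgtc
The collagenase Mmp13 had 623 and 356 CPM against 0 and 0.251 CPM and was 4001-fold (95% counting interval 1107 to 33040) higher, and H2-Aa fell to 3.43 and 7.26 CPM from 255 and 265 CPM (-5.58 ± 0.24). The observed to expected ratios of CG were 0.0722 for Mmp13, 0.316 for Itgam, 0.158 for H2-Aa, 0.697 for Cs and 1.16 for Eprs. A CpG-rich promoter did not go with a small change in every case: Met, with a ratio of 0.794, rose by 8.44 ± 0.31 on the log2 scale. It was not the only such gene. Flrt2 (ratio 0.61) and Nid1 (0.64) were also among the largest rises. Nr4a3 (0.866), Kcnk5 (0.878), Il6ra (0.769) and Btg2 (0.827) fell, with log2 fold changes of -7.89, -6.15, -2.83 and -2.48.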

How the data were processed

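Gene counts per library were deposited by the authors as 1 table of raw, unnormalized counts for 37310 genes. Per the submitters' processing notes, Bowtie, HTSeq 0.6.1, R 3.3 and the mm10 (GRCm38) genome were used. Per the labels' protocols, 2 ng of total RNA were amplified with a linear, random and poly-T primed method (Ovation RNA-seq system V2 of NuGEN). Strand setting, duplicate removal and the treatment of multi-mapping reads are not given in the sources used here. Each of the 8 columns matched a sample title, and 0 columns had no sample.

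All 8 libraries in 4 groups were fitted together with edgeR 4.0.16 in R 4.3.3 (filterByExpr with a minimum count of 10, TMM scaling, robust quasi-likelihood fit, common biological coefficient of variation 0.22, 4 residual degrees of freedom), and exAM was contrasted with tAM. Cells that had been cultured and then transplanted and host cells entered only through the shared dispersion. An adjusted p under 0.05 (Benjamini-Hochberg over 14537 genes) was a call, and glmTreat tested a minimum of 2-fold or 4-fold. The procedure was run on simulated data in which few genes changed, in random directions, with the same spread for all genes. That setting cannot show how scaling and calls behave where 44.7% of genes are called. Exon lengths and positions come from GENCODE M21 (GRCm38, 87.4% of the table's identifiers) and promoter sequences from RefSeq (GRCm38.p6). Fold bounds against 0 counts use 3 counts over the group, and ratios with 1 to 3 counts carry a 95% counting interval. Python 3.11.15 with pandas 2.3.3, scipy 1.17.1 and matplotlib 3.10.9 summarised the lists.

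Genes were named by rule: per list up to 3 called members per direction with the largest change and libraries that did not overlap, of which the group with more had at least 10 CPM; overall the 12 largest changes per direction among genes with at least 200 CPM, and members of the pathway and marker lists. Other family members printed for contrast were chosen after their values were seen. Individual values of a few listed genes are not reported here. The gene lists and members were chosen with earlier results of these data known, and no list was tested as a set. The alternatives were other scalings, other count filters, only the 4 libraries compared, a replicate block, DESeq2 1.42.0, genes under 0.5 counts per base, and leaving out each library.

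The replicate numbers of exAM and tAM did not pair the libraries: the correlation of deviations of same-numbered libraries was -0.037 over the genes tested.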

Additional observations from a re-analysis of the deposited data

How the results depend on the processing

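Over the other scalings and count filters, the count of genes higher in exAM ranged from 2250 (library size scaling) to 3211 (DESeq2 size factors) and that of genes lower from 3080 (minimum of 50 counts) to 4274 (library size scaling), against 3124 and 3378. No gene called under an alternative was called in the opposite direction in the comparison as reported. A minimum of 2-fold left 743 and 1164 genes. Without a filter on low counts there were 3182 and 3803, with upper quartile scaling 2518 and 3927, with only the 4 libraries 3197 and 3386, with DESeq2's Wald test 3154 and 3305, and among genes under 0.5 counts per base 2842 and 3075. Leaving out each library in turn gave 2234 to 2413 higher and 2293 to 2630 lower, where the group left with 1 library was taken to vary like the others. Without the Y-linked genes and Xist, an alternative chosen after seeing the data, there were 3120 and 3379. Of 2691 values of 182 of the genes named, 4 changed direction, all of them of genes that were not called. Csf2ra was at -0.141 with library size and -0.070 with upper quartile scaling. Mmp17, at 0.45 as reported, ranged from -3.70 to 4.10 when a library was left out. It was below 0 without exAM replicate 1 and without tAM replicate 2. No longer called were 74 values in 54 genes, 50 of them against the 2-fold minimum. Of 92 lists, the median changed sign for 11 with library size scaling and for 12 with a minimum of 50 counts.

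With the replicate number as a block, 2924 genes were higher and 3158 lower. The libraries share only a number, and with 2 numbers no check by best correlation is possible.

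No gene exceeded 1.85 counts per base, and whether that limits the fold changes of abundant genes was not tested. The totals of 6546272 to 8302130 counts limit rare ones, and 2 pools per group leave few degrees of freedom.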
